A study of Mus musculus with 10 samples.

Results

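Dach-, Eya- and Six-family genes encode the nuclear proteins of a conserved determination network, and 9 of them were followed here in mouse dorsal root ganglia (DRG): *Dach1*, *Dach2*, *Eya1*, *Eya2*, *Eya3*, *Eya4*, *Six2*, *Six4* and *Six5*. They were chosen by name, as the rows whose Ensembl identifier maps to these symbols, and make up 9 of the 55414 genes listed in each library. Of these, 8 passed the filter on low counts (at least 10 counts in at least 5 libraries) and entered the comparison of 17490 genes, and *Six2* did not. *Dach1* was the gene deleted in the study, so its level is also the check of the group labels.

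In this network, Six-family proteins are homeodomain factors that bind DNA, and Eya proteins are transcriptional coactivators with a phosphatase domain that lack a DNA-binding domain of their own and are brought to target genes by them. Dach proteins, which share a domain with the corepressors Ski and SnoN, join such complexes and bring corepressors to them. The network was first worked out in the fly eye together with Pax genes, and in vertebrates its members act in muscle, kidney, ear and cranial sensory ganglia.

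RNA of DRG dissected at E18.5 was sequenced from 5 control and 5 *WD1* cKO embryos. In *WD1* cKO embryos, Cre under *Wnt1* regulatory sequence recombines the floxed *Dach1* allele in the neural crest, from which DRG neurons and glia derive. Cells of other origin in the ganglion, such as endothelium, keep the allele intact. By the genotype entries of the labels both groups carried *Dach1* flox/flox and differed in Cre. The entries and the sample titles name opposite groups as Cre-positive, and the titles were followed. The floxed line was kept on a mixed C57Bl/6J and CD1 background. The controls were littermates, but neither the labels nor the study's methods say which embryos shared a litter, so p-values measure the spread between these libraries.

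Libraries held 20465132 to 27528784 counts (control) and 19757596 to 34796562 counts (*WD1* cKO). All 9 genes of a neuronal marker list and all 8 of a glial list passed the filter in these ganglia, with summed levels of 12010.5 to 15219.8 and 842 to 1049 CPM, counts scaled to library size. No gene of these 2 lists passed the test between the groups. In a list of 8 genes of A-LTMR, the myelinated low-threshold mechanoreceptors, *Calb2* was called lower in *WD1* cKO embryos, at 0.981 ± 0.162 against 4.10 ± 0.533 CPM (SD, n = 5 each). *Ntrk2*, *Shox2* and *Mafa* of this list had unadjusted p under 0.05 and were not called, at log2 fold changes of -0.18, 0.30 and 0.34. The study picked *Calb2* and *Shox2* from these libraries, so the list is not independent evidence. Its summed level was 1319 to 1477 CPM in control libraries and 1361 to 1453 CPM in *WD1* cKO libraries. The largest parts of this sum were *Ret* and *Ntrk3*, at 747 ± 77.0 and 316 ± 25.1 CPM in control libraries (SD, n = 5). The study also places their proteins in nociceptors and proprioceptors, respectively, so the sum is not specific to A-LTMR. The 7 blood genes summed to 156 to 2504 CPM in control libraries and 190 to 1148 CPM in *WD1* cKO libraries, and 8 muscle genes to 29.7 to 225 and 57.2 to 126 CPM. The median log2 fold changes of these blood and muscle lists were -0.93 and -0.57, with 0 genes of either called. All 8 genes of a connective tissue list had positive log2 fold changes, with a median of 0.10 and 0 called, and *Postn* (0.19) and *Lum* (0.22) had unadjusted p under 0.05 in edgeR. The connective tissue sum was 4564 to 6281 CPM in control libraries and 5139 to 5930 CPM in *WD1* cKO libraries. No gene of a spinal cord list passed the filter, but its summed level was 18.4 CPM in control replicate 3 and 0.0736 to 1.39 CPM in the other 9 libraries.

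The floxed part of *Dach1* is its exon 2, as the study states. In the longest *Dach1* transcript of GENCODE M21, exon 2 of 12 lies on the minus strand at chr14:98018878-98018993 of GRCm38 and its 116 bases are all coding. Exon 2 of 12 of the longest *Dach2* transcript lies on the plus strand at chrX:113556248-113556360 and has 113 bases. Both are shown as sense-strand sequence because Cre removes this exon of *Dach1* and leaves that of *Dach2* in place. Capitals mark the 78 bases that are identical in a global alignment, which is 67.2% of the *Dach1* exon and 69.0% of the *Dach2* exon.
*Dach1* exon 2: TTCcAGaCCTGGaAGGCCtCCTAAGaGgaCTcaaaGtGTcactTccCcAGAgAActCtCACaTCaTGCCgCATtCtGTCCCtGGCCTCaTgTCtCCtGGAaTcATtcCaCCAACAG
*Dach2* exon 2: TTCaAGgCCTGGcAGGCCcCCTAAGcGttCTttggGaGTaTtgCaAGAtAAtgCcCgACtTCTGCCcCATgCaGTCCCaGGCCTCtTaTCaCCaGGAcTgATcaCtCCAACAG

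Counts were made on GRCm39 over all exons of a gene, and exon 2 holds 1.59% of the 7317 exon bases of *Dach1*. A *Dach1* transcript without exon 2 is therefore still counted on its other exons. Despite the likeness of the exons, no run of 50 bases was shared between the transcripts of *Dach1* and *Dach2*, nor between those of any other 2 members. Genes that overlap a member in GENCODE M21 shared 0 exon bases with it.

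*Dach1* was lower in every *WD1* cKO library, *Dach2* was scarce in both groups, and no other member changed past the test. The *Dach1* level was 35.1, 38.5, 41.6, 37.1 and 37.4 CPM in control replicates 1 to 5 and 19.1, 20.7, 19.5, 20.3 and 20.4 CPM in *WD1* cKO replicates 1 to 5. The groups did not overlap, and the spread within either was small beside the gap between them. The log2 fold change of *Dach1* was -0.92 with a standard error (SE) of 0.050, with a Benjamini-Hochberg adjusted p = 5.48e-06 over all genes tested in edgeR's quasi-likelihood test. This left 52.8% of the control level, with a 95% interval from 48.9% to 57.0%. *Dach1* had the lowest p of all genes tested, and the exact two-sided permutation test over libraries gave p = 0.00794, the smallest that 5 against 5 allow. In such bulk tissue, fewer cells that express a gene and less RNA per cell cannot be told apart. The study reports that immunostaining for the Dach1 protein was lost in *WD1* cKO DRG by E18.5. It also reports no difference from controls in the number of neurons in thoracic DRG at that stage. Transcripts without the floxed exon are still counted here, so the remaining *Dach1* level does not measure how complete the deletion was.

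*Dach1* was the 1 member called of 8 tested. Over all 17490 genes tested, edgeR called 7 (0.04%), of which 6 (0.0343%) were lower in *WD1* cKO embryos. DESeq2's Wald test called 19 genes (0.109%), and *Dach1* was again the 1 member among them. Without adjustment, 1 of the 8 members had p under 0.05, against 4.5% of all genes. Groups that do not overlap were found for 1 of the 8 members, against 1.06% of all genes in either direction. In the direction of lower *WD1* cKO values, 0.566% of all genes had such groups. In each of these counts the 1 member is *Dach1*, the deleted gene, and no other member adds to them. They are therefore no finding about the rest of the network.

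**Figure D1:**
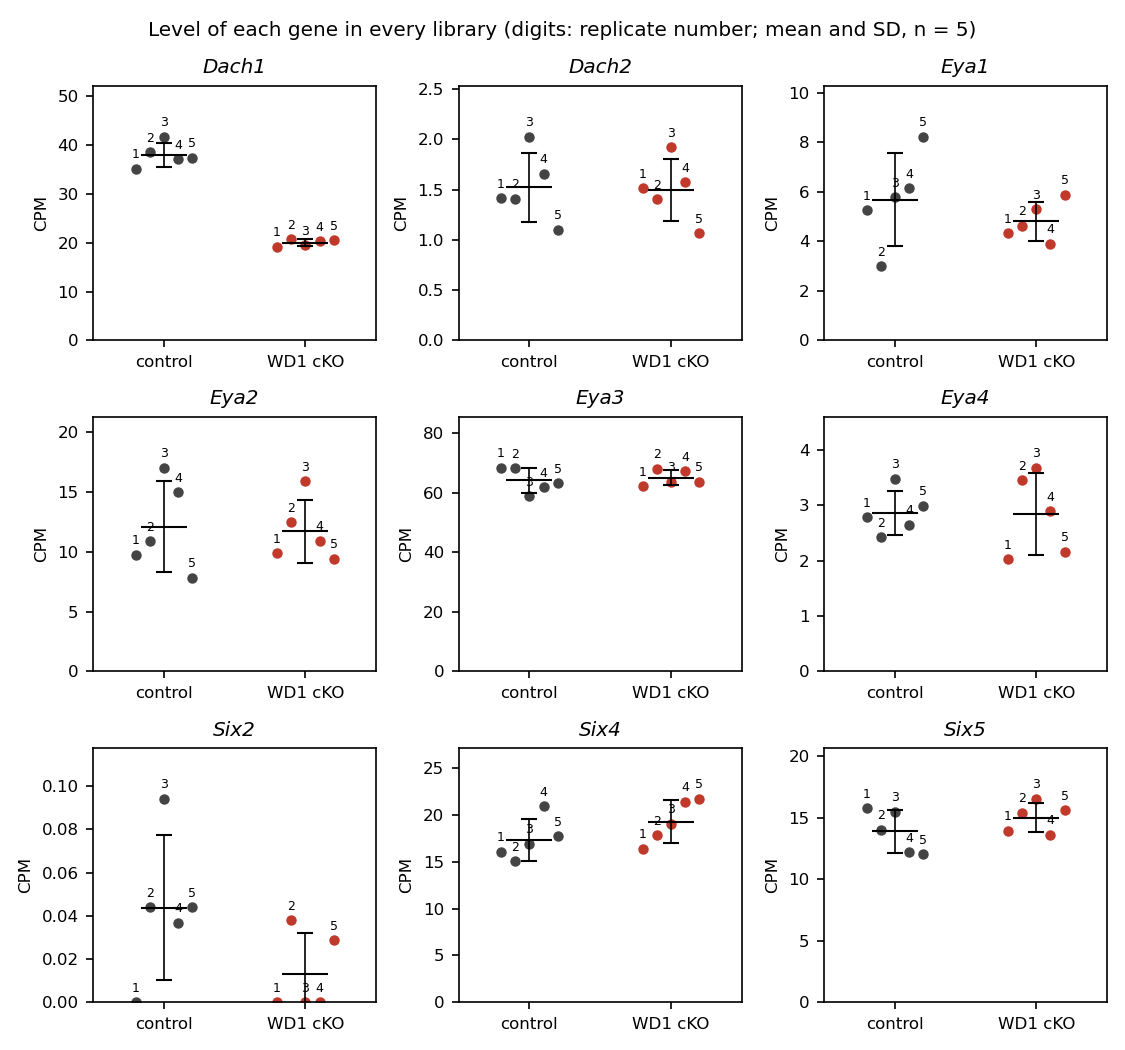
Level of each of the 9 genes in every library, in CPM on linear axes that start at 0. Each point is a library with its replicate number, and the horizontal bar and whiskers give the mean and SD of 5 libraries. The 5 *WD1* cKO points of *Dach1* lie between 19.1 and 20.7 CPM, below all control points, while the groups overlap in the other panels.

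*Dach2*, the paralog of *Dach1*, was counted 25 to 45 times per control library and 31 to 58 times per *WD1* cKO library. Its level was 1.41, 1.41, 2.02, 1.66 and 1.10 CPM in control replicates 1 to 5 and 1.52, 1.41, 1.92, 1.58 and 1.07 CPM in *WD1* cKO replicates 1 to 5. The groups overlapped, and replicate 3 was highest and replicate 5 lowest in each. The log2 fold change was -0.03 (SE 0.194), with a Benjamini-Hochberg adjusted p = 1.00 in edgeR's quasi-likelihood test. The 95% interval of the *WD1* cKO level ran from 73.2% to 131% of control, so a change of *Dach2* inside these bounds is not excluded.

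Divided by exon length, *Dach2* made up 2.90%, 2.65%, 3.48%, 3.20% and 2.13% of the summed *Dach1* and *Dach2* level in control replicates 1 to 5. In *WD1* cKO replicates 1 to 5 the share was 5.55%, 4.78%, 6.80%, 5.45% and 3.73%. Every *WD1* cKO library was above every control library, with means of 5.26% ± 1.13 and 2.87% ± 0.519 (SD, n = 5 each, exact permutation test, p = 0.00794). *Dach1* is in the denominator of this share, so it is no finding apart from the fall of *Dach1*. The summed level of the 2 genes was 5.34 ± 0.352 CPM per kilobase in control and 2.89 ± 0.0796 CPM per kilobase in *WD1* cKO embryos (SD, n = 5 each, exact permutation test, p = 0.00794), or 0.542 of control. In control embryos *Dach1* made up 97.1% of this sum, so the test of the sum repeats that of *Dach1*.

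Levels were compared between genes per kilobase of the union of exons, in the 5 control libraries. *Eya3* was highest at 11.4 ± 0.726 CPM per kilobase (SD, n = 5), above 73.7% of all genes tested. *Dach1* followed at 5.18 ± 0.328, *Six5* at 4.63 ± 0.581 and *Eya2* at 4.07 ± 1.28 CPM per kilobase, all near the median of 4.47 over the genes tested. *Six4* stood at 1.60 ± 0.205, *Eya1* at 0.728 ± 0.240, *Eya4* at 0.304 ± 0.0426 and *Dach2* at 0.154 ± 0.0348 CPM per kilobase, the last above 2.58% of the genes tested.

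The ranges of neighbours in this order overlapped only for *Dach1* with *Six5* and for *Six5* with *Eya2*. *Dach1* was above *Six5* in 4 of 5 control libraries (exact sign-flip permutation test within libraries, two-sided, p = 0.125), and *Six5* was above *Eya2* in 3 of 5 (exact, p = 0.3125). Every other neighbouring pair down to *Dach2* kept its order in 5 of 5 libraries, with the exact p = 0.0625 that is the smallest 5 libraries allow. With the length of the longest transcript in place of the union, *Eya2* stood at 4.91 and *Six5* at 4.63 CPM per kilobase, which exchanges their places.

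**Figure D2:**
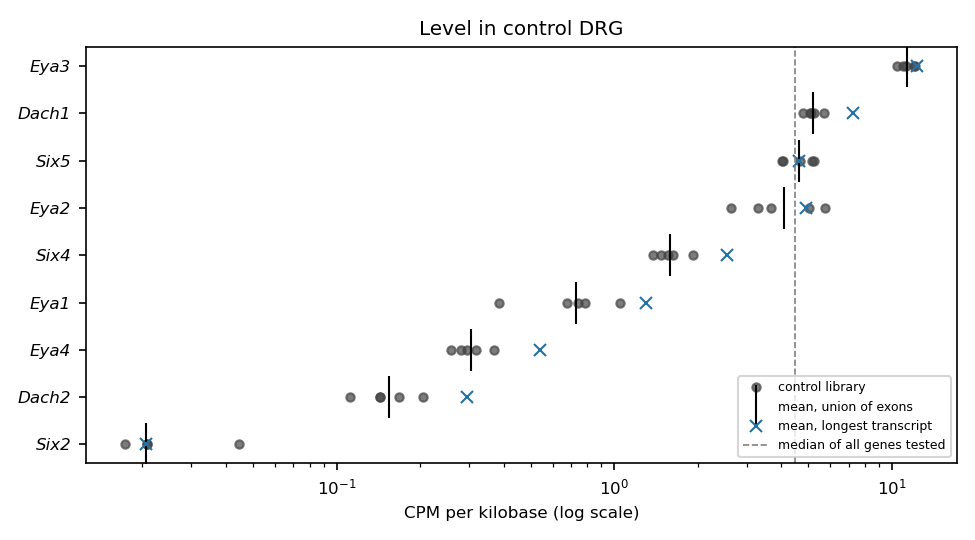
Level of each gene in control DRG in CPM per kilobase, on a log axis. Dots are the 5 control libraries, ticks the mean per union of exons and crosses the mean per longest transcript. A library of *Six2* with 0 counts is not drawn, and the dashed line marks the median of the genes tested, 4.47 CPM per kilobase.

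Among the coactivators, *Eya3* and *Eya2* carried most of the RNA of the family and none of the 4 genes passed the test between genotypes. The *Eya3* level was 68.4, 68.2, 58.9, 62.0 and 63.3 CPM in control replicates 1 to 5 and 62.2, 68.1, 63.8, 67.2 and 63.7 CPM in *WD1* cKO replicates 1 to 5. All *WD1* cKO values lay inside the control range, and control replicates 3 and 4 lay below all of them. *Eya3* had a log2 fold change of 0.02 (SE 0.0465), and the interval of its *WD1* cKO level, 94.4% to 109% of control, was the narrowest of the members on the log2 scale.

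The *Eya2* level was 9.75, 10.8, 17.0, 14.9 and 7.83 CPM in control replicates 1 to 5 and 9.86, 12.5, 15.9, 10.9 and 9.41 CPM in *WD1* cKO replicates 1 to 5. As for *Dach2*, replicate 3 was highest and replicate 5 lowest in both groups, which overlapped. The fold change of *Eya2* was -0.04 on the log2 scale (SE 0.204), with an interval from 71.3% to 132% of control. The coefficient of variation of *Eya2* over control libraries was 31.3%, against 6.31% from counting error alone.

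*Eya1*, which in mice is needed for ear, kidney and cranial ganglion development, was at 5.27, 3.00, 5.79, 6.15 and 8.23 CPM in control replicates 1 to 5. In *WD1* cKO replicates 1 to 5 it was at 4.34, 4.64, 5.30, 3.91 and 5.89 CPM. All *WD1* cKO values lay inside the control range, whose ends were control replicates 2 and 5. The log2 fold change of *Eya1* was -0.23 (SE 0.211), with an interval from 62.0% to 117% of control, the lowest lower bound among the members apart from *Dach1*. Its coefficient of variation over control libraries, 33.0%, was the largest among the 8 members tested, against 9.32% from counting error.

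*Eya4*, known from inherited hearing loss and cardiomyopathy, was counted 48 to 111 times per library. Its level was 2.78, 2.43, 3.48, 2.65 and 2.99 CPM in control replicates 1 to 5 and 2.02, 3.46, 3.68, 2.90 and 2.16 CPM in *WD1* cKO replicates 1 to 5. The *WD1* cKO values reached both above and below all control values. The log2 fold change of *Eya4* was -0.01 (SE 0.179), with an interval from 75.9% to 130% of control.

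By CPM per kilobase, *Eya3* made up 69.2% ± 6.43 of the family in control and 70.4% ± 3.97 in *WD1* cKO embryos (SD, n = 5 each). *Eya2* made up 24.5% ± 6.63 and 24.0% ± 3.79, *Eya1* 4.46% ± 1.63 and 3.78% ± 0.684, and *Eya4* 1.85% ± 0.255 and 1.82% ± 0.359. None of these shares differed past the spread between libraries (exact permutation tests over the 4 genes, p from 0.460 to 0.913). The summed *Eya* level was 16.5 ± 0.806 CPM per kilobase in control and 16.4 ± 1.12 CPM per kilobase in *WD1* cKO embryos (SD, n = 5 each, exact permutation test, p = 0.889).

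**Figure D3:**
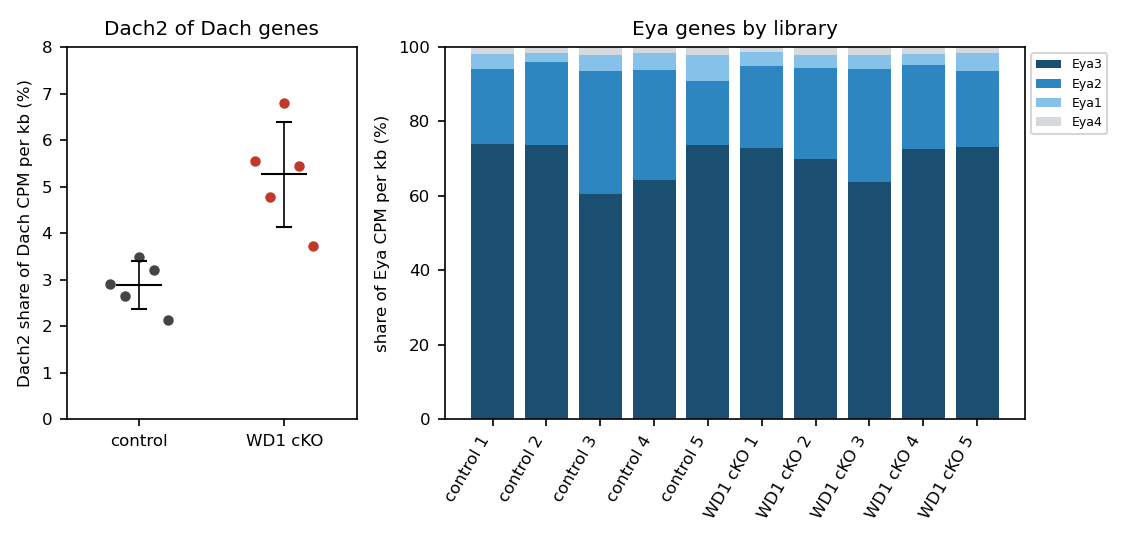
Left, share of *Dach2* in the summed *Dach1* and *Dach2* level, in percent of CPM per kilobase, by library with mean and SD of 5. Right, share of each *Eya* gene in the summed *Eya* level of each library, where *Eya3* takes 60.4% to 74.0% of each bar and *Eya2* most of the rest.

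Of the Six-family factors, *Six4* and *Six5* were expressed and *Six2*, a gene of kidney progenitors, was under the floor of 3 counts in every library. The 5 control libraries held 0, 1, 2, 1 and 1 counts of *Six2* in the order of their numbers, and the *WD1* cKO libraries held 0, 1, 0, 0 and 1. A count of 0 allows up to 0.146 CPM in control replicate 1. No fold change is given for *Six2*.

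The *Six4* level was 16.0, 15.0, 16.9, 20.9 and 17.7 CPM in control replicates 1 to 5 and 16.4, 17.8, 19.0, 21.4 and 21.7 CPM in *WD1* cKO replicates 1 to 5. The groups overlapped, though 2 *WD1* cKO libraries were above all control libraries and each was above the control library of its number, though the numbers were not taken as pairs (exact permutation test, p = 0.198). The log2 fold change of *Six4* was 0.15 (SE 0.0985; unadjusted p = 0.149 and Benjamini-Hochberg adjusted p = 1.00 in edgeR's quasi-likelihood test), with an interval from 95.8% to 129% of control.

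*Six5*, whose human counterpart lies beside the repeat expansion of myotonic dystrophy, was at 15.8, 14.0, 15.5, 12.2 and 12.1 CPM in control replicates 1 to 5. In *WD1* cKO replicates 1 to 5 it was at 13.9, 15.4, 16.5, 13.6 and 15.6 CPM. The groups overlapped, with control replicates 4 and 5 lowest and *WD1* cKO replicate 3 highest. The log2 fold change of *Six5* was 0.12 (SE 0.0892, unadjusted p = 0.220 by edgeR), with an interval from 94.7% to 124% of control.

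**Figure D4:**
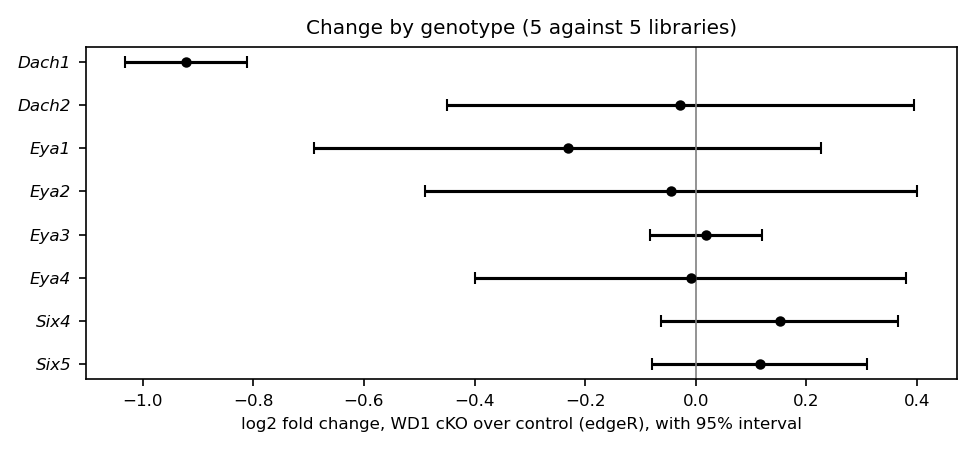
Log2 fold change of the 8 members tested, *WD1* cKO over control, with 95% intervals from edgeR (5 against 5 libraries). *Dach1* lies at -0.92, and the intervals of the other 7 include 0.

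Apart from *Dach1*, the 7 members tested had log2 fold changes from -0.23 to 0.15. The median absolute log2 fold change over all genes tested was 0.053, with a median standard error of 0.075. The standard errors of all members tested except *Dach1* and *Eya3* were above that median, and those of *Dach2*, *Eya1*, *Eya2* and *Eya4* were the highest, from 0.179 to 0.211.

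Genes that act with the network were read from 5 lists, chosen with earlier results of these data known, and 0 genes of any list were called in either direction. Among Pax and other Six-family genes, 4 of 8 passed the filter, with a median log2 fold change of 0.14 and 2 positive and 2 negative values. *Pax3*, a neural crest factor, was at 0.618 ± 0.272 CPM in control and 0.770 ± 0.227 CPM in *WD1* cKO embryos (SD, n = 5 each). The corepressors and deacetylases with which Dach proteins can act were all well detected, with a median of -0.03 over 7 genes and values from -0.13 to 0.01. In that list *Ncor1*, a scaffold of deacetylase complexes, was at 288 ± 8.59 CPM in control and 285 ± 13.4 CPM in *WD1* cKO embryos (SD, n = 5 each). *Ski*, whose protein shares the Dach domain, was at 165 ± 9.81 and 159 ± 8.84 CPM (SD, n = 5 each).

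The 7 cofactors of Six- and Eya-family proteins had a median log2 fold change of -0.07. The Groucho-family corepressor *Tle4* was at 168 ± 7.54 CPM in control and 160 ± 9.42 CPM in *WD1* cKO embryos, and *Tle5* at 397 ± 18.9 and 389 ± 21.1 CPM (SD, n = 5 each). Of 6 genes known as targets of Six- and Eya-family proteins in other tissues, 2 had an unadjusted p under 0.05, against 4.5% of all genes tested, and neither was called. The connective tissue list, also with positive values, moved beside them, and its part in them was not tested. The cell cycle gene *Ccnd1* was at 68.4 ± 9.95 and 85.2 ± 13.6 CPM, a log2 fold change of 0.32 (unadjusted p = 0.0195, Benjamini-Hochberg adjusted p = 1.00 in edgeR's quasi-likelihood test). *Ezr*, which links membrane and actin, had a log2 fold change of 0.08 (unadjusted p = 0.0271, adjusted p = 1.00 by edgeR, likewise).

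The sensory neurogenesis factors were the remaining list, in which *Neurog1* and *Neurog2*, which start sensory neurogenesis earlier in development, were counted at most 1 time per library. The other 4 genes all had negative log2 fold changes, with a median of -0.10, and none was called. *Isl1*, a factor of all DRG neurons, was at 295 ± 44.1 CPM in control and 271 ± 24.7 CPM in *WD1* cKO embryos, and *Prdm12*, a factor of nociceptors, at 175 ± 11.7 and 164 ± 14.7 CPM (SD, n = 5 each). The median over all genes tested was 0.0002.

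**Figure D5:**
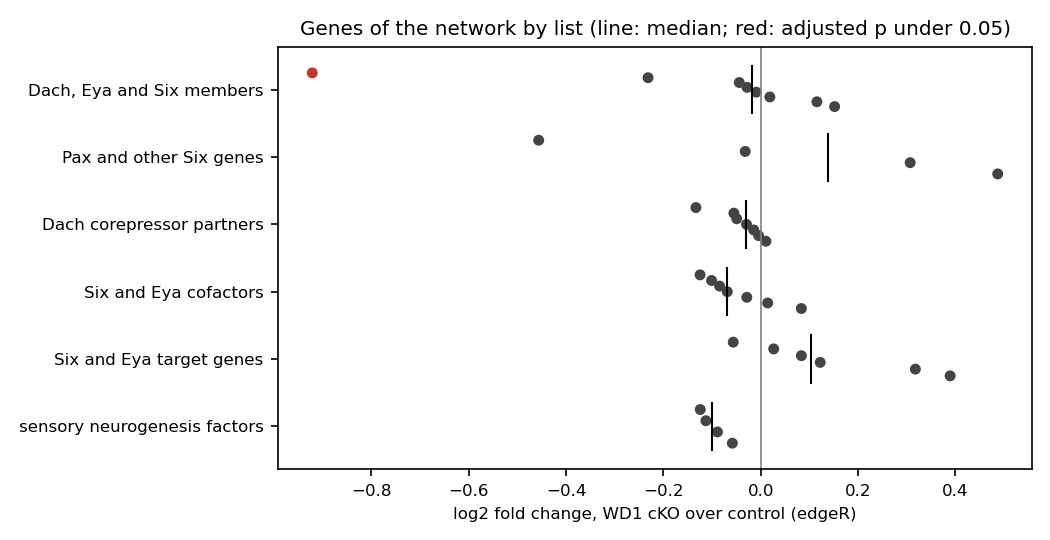
Log2 fold change, *WD1* cKO over control, of each gene of the member list and the 5 lists of genes that act with it, 1 point a gene that passed the filter, with a line at the median of each list. The red point is *Dach1* at -0.92, and no other point passed the test.

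The members varied together over libraries in part. Replicate 3 was highest in both groups for *Dach2*, *Eya2* and *Eya4*, and these libraries also had the highest summed level of a connective tissue list, 6280.5 CPM in control and 5930.4 CPM in *WD1* cKO embryos, and the lowest of the neuronal list, 12010.5 and 13230.5 CPM. *Six4* was highest in replicates 4 and 5 of both groups, the libraries with the lowest blood sums, 156 and 184 CPM in control and 244 and 190 CPM in *WD1* cKO embryos. The part of these cell types in the levels of the members was not tested.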

How the data were processed

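DRG RNA of 10 embryos, 5 in each group, was sequenced in bulk. The authors made libraries with a stranded mRNA kit, converted reads with bcl2fastq 2.20.0.422, aligned them with STAR 2.7.8a to GRCm39 and assigned them to genes with featureCounts 2.0.1, and they deposited raw counts for each library. Whether counting used strand and multi-mapping reads is not given in the sources used here. Libraries were grouped by title. No 2 libraries of a group agreed within sampling noise (chi-square of their counts divided by its degrees of freedom, 4.33 to 15.7), and each is 1 replicate.

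The genotypes were compared with edgeR 4.0.16 in R 4.3.3 (quasi-likelihood test, TMM scaling, at least 10 counts in at least 5 libraries, Benjamini-Hochberg adjustment over 17490 genes, threshold 0.05). CPM use TMM library sizes. Exact permutation tests were two-sided, on log2 CPM (prior count 1) or on shares. Symbols (52081 of 55414 genes), gene lengths and exon sequences came from GENCODE M21 on GRCm38, and no coordinate was converted. Exons were aligned with Biopython 1.88. Alternatives were DESeq2 1.42.0, DESeq2 size factors, other filters, the replicate number as a block, *Xist* as a covariate, another prior count, longest-transcript lengths and each library left out. The members, lists and tests were chosen with earlier results of these data known. Named genes are all members, listed genes with an unadjusted p under 0.05 or, if under 2 in a list, its 2 highest in level, and the 3 genes most like each member. *Ski* was named after its values were seen, and 2 genes named by the rule are not reported here. In simulated *WD1* cKO against control data of 17306 genes, edgeR recovered 66 of 99 genes changed by 0.5 on the log2 scale. It recovered 83 of 98 changed by 1, with 10 false calls. The changed genes were picked at random over all levels, and each gene was drawn independently of the others. These rates are therefore not the recovery for single members.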

Additional observations from a re-analysis of the deposited data

How the results depend on the processing

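*Dach1* was the 1 member called in each of the 16 alternative fits, with log2 fold changes from -0.95 to -0.89 and adjusted p no higher than 7.66e-05 (edgeR or DESeq2, Benjamini-Hochberg adjustment). *Six4*, *Six5* and *Eya1* kept their direction in all 16, and none was called, but their size moved with single libraries. Without 1 library at a time, the log2 fold change ran from -0.39 to -0.061 for *Eya1*, 0.10 to 0.23 for *Six4*, 0.070 to 0.16 for *Six5*, -0.144 to 0.0906 for *Dach2*, -0.184 to 0.107 for *Eya2*, -0.0101 to 0.0424 for *Eya3* and -0.125 to 0.0877 for *Eya4*, and the share difference in percentage points from -1.21 to -0.0627 for *Eya1*, -2.34 to 1.62 for *Eya2*, -0.943 to 2.95 for *Eya3* and -0.121 to 0.0745 for *Eya4*. With *Xist* as a covariate the log2 fold change was 0.0609 for *Dach2*, 0.128 for *Eya2* and 0.0748 for *Eya4*, and without the filter on low counts it was 0.0016 for *Eya4*. These changes of sign in log2 fold change lie within the intervals given, and the cause was not tested. *Eya1* was at -0.39 without control replicate 2 (unadjusted p = 0.0251 by edgeR) and at -0.061 without control replicate 5 (unadjusted p = 0.756 by edgeR). *Six4* was at 0.23 without control replicate 4 (unadjusted p = 0.0247 by edgeR) and at 0.10 without *WD1* cKO replicate 5 (unadjusted p = 0.343 by edgeR), and *Six5* at 0.070 without control replicate 5.

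With longest-transcript lengths, the control level in CPM per kilobase was 7.27 for *Dach1*, 0.295 for *Dach2*, 1.30 for *Eya1*, 12.4 for *Eya3*, 0.540 for *Eya4* and 2.54 for *Six4*. Same-numbered libraries of the groups correlated from -0.353 to 0.566 in their deviations, 4 of 5 above 0.1. Of 10 libraries, 3 correlated best with their own number, so the numbers were not taken as pairs. Control replicates 4 and 5 correlated with *WD1* cKO replicates 4 and 5 from 0.373 to 0.566. Control replicates 1 to 3 correlated with those 2 from -0.527 to -0.0695, and with *WD1* cKO replicates 1 to 3 from -0.353 to 0.499. The cause of this split was not tested. With the replicate block, *Dach1* was at -0.92 (adjusted p = 6.48e-05 by edgeR) and edgeR called 8 genes in place of 7. The exact sign-flip permutation test with the replicate block gave a difference of -0.92 for *Dach1* with p = 0.0625, the smallest that 5 pairs allow. *Six4* was at 0.16 with the replicate block (SE 0.0573, 95% interval 0.0285 to 0.284, unadjusted p = 0.0214 and Benjamini-Hochberg adjusted p = 0.650 by edgeR). The block changed no call of a member. Over all genes, 4 were called with the filter at a mean count of 100, 4 with *Xist* as a covariate, 10 without the filter, 19 in DESeq2, and 3 to 6 with 1 library left out. Among the members tested, depth limits *Dach2* and *Eya4* most, with 25 to 58 and 48 to 111 counts per library.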

Other observations

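The genes whose levels ran most closely with each member over the 10 libraries, after the group means were removed, were sought among the 12750 genes whose mean count reached 100. Libraries share depth and tissue makeup, and these correlations were picked as the highest of many, so they are a description. *Dach1* ran closest with *Adgrb2*, an adhesion receptor (r = 0.956), *Polrmt*, the mitochondrial RNA polymerase (r = 0.955), and *Mxd3* (r = 0.930). *Dach2* ran closest with *Tob2* (r = 0.987), *Col6a1*, a collagen of connective tissue (r = 0.969), and *Zbtb39* (r = 0.967).

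For *Eya1* these were *Tmed4*, *Vps51* and *Tpm1* (r from 0.911 to 0.944), for *Eya2* *Tpcn1*, *Mpp6* and *Zfp362* (r from 0.963 to 0.979), for *Eya3* *Slmap*, *Zfp174* and *Sugp2* (r from 0.917 to 0.927) and for *Eya4* *Slc39a1*, *Tent5a* and *Adam8* (r from 0.923 to 0.960). *Six4* ran closest with *Apod*, *C1qtnf7* and *Rspo2* (r from 0.962 to 0.972) and *Six5* with *Vim*, the intermediate filament gene of glia and fibroblasts (r = 0.985), *Eef1b2* and *Zfp36l2*. Over these 24 genes, rho ran from 0.770 to 1.00, and r without the 2 libraries farthest from the median of the member ran from 0.783 (*Eya1* with *Tpm1*) to 0.987 (*Eya4* with *Adam8*). Between members, the closest was *Dach2* with *Eya2* (r = 0.881, rho = 0.903) and the most opposed *Eya1* with *Eya3* (r = -0.527, rho = -0.370), while *Dach1* and *Dach2* had r = 0.206.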
